A study of Mus musculus with 3 samples.

Results

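The genes that build cholesterol and fatty acids were followed in intratumoral T cells from an adoptive cell transfer model. The set was a list of 32 gene symbols, drawn up with earlier results of these data known, out of 33696 genes in the deposited matrices, and all 32 were present. It had a sterol arm of 18 enzymes of cholesterol synthesis, a fatty acid arm of 8 enzymes, and 6 genes of the control machinery. The cells were TCR transgenic Thy1.1+ pmel CD8+ T cells, which recognize the melanoma antigen gp100. Before transfer, they were cultured with gp100 peptide and with sIL-2 (super IL-2, a variant of interleukin-2 that binds the beta chain of its receptor tightly), with both sIL-2 and IL-21, or with IL-2/21-Trikine (hereafter Trikine), a protein in which sIL-2 is joined to a binder of the IL-21 receptor so that both receptors are brought together. All hosts were Thy1.2+ C57BL/6 mice with subcutaneous B16F10 melanoma that had been lymphodepleted by irradiation, and all 3 groups were on the low dose regimen. By the study's methods, hosts of cells from either culture without Trikine were then injected with sIL-2 alone, while hosts of cells cultured with Trikine were injected with Trikine. The sIL-2 library and that labelled sIL-2 + IL-21 thus shared the injected cytokine and differed in the culture before transfer. Tumors were taken on day 18 after tumor injection, and live Thy1.1+CD8+ cells were sorted and sequenced as 1 library per group. The number of mice behind a library was not given in the sources used here. The treatment and the library cannot be told apart, no test between groups was possible, and no p-value is given.

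Cholesterol synthesis starts from acetyl-CoA, runs through mevalonate to the isoprenoid farnesyl diphosphate, then to squalene, and ends in a series of changes to the sterol ring. SREBP2, the product of Srebf2, is the main activator of these genes. Scap carries it out of the endoplasmic reticulum when sterols are low, and the Insig proteins hold it there when sterols are high. SREBP1, the product of Srebf1, acts more on fatty acid synthesis. T cells need both lipid classes for new membrane when they divide, and excess sterol acts through LXR receptors, which turn on genes of sterol export.

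SREBP proteins bind short sterol response elements, often beside sites of NF-Y, a factor that reads CCAAT. Promoter windows of 250 bases before to 50 bases after the start came from RefSeq (GRCm38.p6) and matched 26 of the 32 genes, all but Fdps, Fdft1, Sqle, Scd2, Fads1 and Stard4. The letters TCACNCCAC, searched on both strands, were in a window of 1 of the 15 matched sterol genes, Hmgcs1. They were in 0 of 6 fatty acid genes and in 0 of 5 control genes, against 388 of 27025 genes in all (1.44%). The letters CCAAT, on both strands, were in a window of 14 of 15 sterol genes, of 3 of 6 fatty acid genes and of 4 of 5 control genes, against 11096 of the 27025 genes (41.1%). The E-box letters CACGTG, whose reverse complement reads the same, were in 3 of the 15 sterol genes, in 0 of the 6 fatty acid genes and in 2 of the 5 control genes, against 8.09% of all genes. These letters were matched only as strings, so elements with other letters were not searched for, and no binding was measured. Stretches of 60 bases before the start are given for Hmgcs1, Idi1 and Cyp51, whose levels differed most between libraries among sterol genes with a window, for the sterol gene Ebp, whose level differed little, and for Fasn of the fatty acid arm. Capitals mark CCAAT or its reverse complement and, in the first stretch, the letters TCACNCCAC, labelled there as sterol element. The stretches read 5′ to 3′ on the strand of the gene.
Hmgcs1 sterol element, chr13:119690189-119690248, plus strand: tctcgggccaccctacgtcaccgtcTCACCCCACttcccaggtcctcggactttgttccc
Hmgcs1 CCAAT, chr13:119690279-119690338, plus strand: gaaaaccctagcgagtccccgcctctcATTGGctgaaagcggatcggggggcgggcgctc
Idi1, chr13:8885546-8885605, plus strand: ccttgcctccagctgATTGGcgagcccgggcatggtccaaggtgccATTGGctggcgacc
Cyp51, chr5:4104698-4104757, minus strand: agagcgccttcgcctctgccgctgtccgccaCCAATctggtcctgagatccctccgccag
Ebp, chrX:8193535-8193594, minus strand: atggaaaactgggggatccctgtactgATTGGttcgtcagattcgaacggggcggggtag
Fasn, chr11:120824574-120824633, minus strand: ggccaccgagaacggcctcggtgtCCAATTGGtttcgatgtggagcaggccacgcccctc
In Hmgcs1 the letters TCACNCCAC began 137 bases before the start and the nearest CCAAT began 45 bases before it. Ebp and Fasn held CCAAT as well, at 55 and 59 bases before the start.

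After limits on UMIs and mitochondrial share, 7760 cells were kept for sIL-2, 13299 for Trikine and 9798 for sIL-2 + IL-21, with totals of 130200802, 166772854 and 168041089 UMIs. Median UMIs per cell were between 10254 and 14056. All 7 T cell markers were detected at 118 CPM (UMI counts scaled by the total of the library) or more in every library, and the summed 7 stood at 4097 to 5034 CPM. The 5 melanoma markers summed to 6.24, 8.82 and 2.22 CPM in the libraries in that order. The 3 hemoglobin genes summed to 53.3 CPM in sIL-2, against 0.0959 and 0.357 CPM in the others. The 9 myeloid markers summed to 192, 71.0 and 200 CPM, of which Fcer1g, also expressed by T cells, held 176, 56.1 and 189 CPM. Summed B cell, NK cell and stroma markers were at most 0.138, 17.3 and 42.9 CPM. Eomes and Klrb1c held nearly all of the NK cell sum, with Ncr1 at 0.202 CPM or less, and Pecam1 held nearly all of the stroma sum. Pairs of libraries shared 18 to 41 cell barcodes, and none was in all 3. Intervals in brackets are exact 95% intervals that cover counting error only. They treat UMIs as independent and carry no variation between cells, mice or libraries.

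The sterol arm stood highest in the sIL-2 + IL-21 library and the fatty acid arm was level across all 3. The summed 18 sterol genes were at 315 CPM in sIL-2 [312 to 318], 366 CPM in Trikine [363 to 369] and 589 CPM in sIL-2 + IL-21 [585 to 593]. The summed 8 fatty acid genes were at 109, 106 and 108 CPM. For every UMI of the fatty acid arm there were 2.88 UMIs of the sterol arm in sIL-2, 3.45 in Trikine and 5.47 in sIL-2 + IL-21. The sterol sum was thus 1.87-fold higher in sIL-2 + IL-21 than in sIL-2 (log2 ratio 0.90 [0.89 to 0.92]), while the fatty acid sum differed by a log2 ratio of -0.02 [-0.05 to 0.01]. Trikine stood between the other libraries in the sterol sum, 1.16-fold above sIL-2 (log2 ratio 0.22 [0.20 to 0.24]) and below sIL-2 + IL-21 by a log2 ratio of -0.69 [-0.70 to -0.67]. The 3 comparisons draw on the same 3 libraries and are not independent of each other. These are sums over a library, in which a larger share of cells with high levels and more RNA per cell cannot be told apart.

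**Figure D1:**
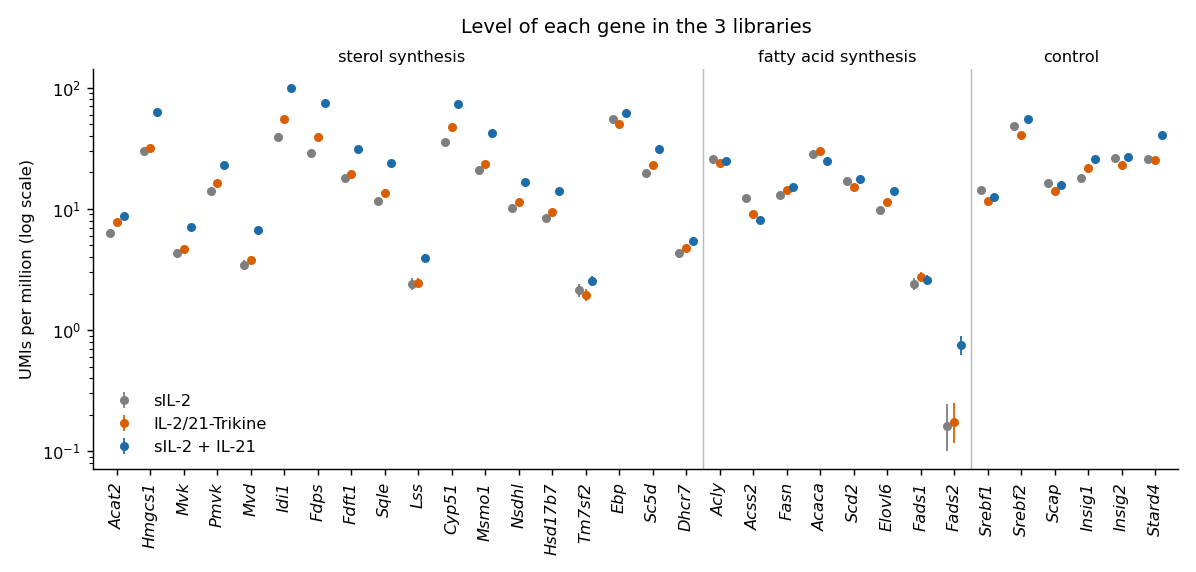
Level of each of the 32 genes in CPM (log scale) in the libraries sIL-2 (gray), Trikine (orange) and sIL-2 + IL-21 (blue), with bars for exact 95% counting intervals. Each point is 1 library. In the sterol arm the blue point lies above the other points for every gene, from 2.52 CPM for Tm7sf2 to 98.9 CPM for Idi1, while in the fatty acid arm the order varies from gene to gene.

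Genes with a mean of at least 10 CPM over the 2 libraries compared were counted as higher or lower at a log2 ratio of their CPM of at least 0.32 or at most -0.32. Between sIL-2 + IL-21 and sIL-2, 12 sterol genes met the level, and 11 of them were higher, all but Ebp. The 6 others, Acat2, Mvk, Mvd, Lss, Tm7sf2 and Dhcr7, were under 10 CPM in each library and entered no count. Over the set of 32, 24 genes met the level, of which 14 were higher and 1 lower, where 11.5% of the 7378 genes that met the level were higher and 21.5% were lower. The median log2 ratio was 0.90 over the sterol genes, -0.01 over 6 fatty acid genes and -0.07 over all 7378 genes. Without cells with a UMI of a melanoma or myeloid marker, the sterol log2 ratio was 1.09, and 0.93 when Fcer1g and Cd68 were not used as markers. The wider filter left out 37.7% of cells in sIL-2, 20.2% in Trikine and 44.3% in sIL-2 + IL-21. Most of these held Fcer1g, so that filter took out T cells too. The part of carried-over cells was not tested.

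Among the enzymes that lead to farnesyl diphosphate, Fdps and Idi1 differed most. Hmgcs1, which makes HMG-CoA, was at 30.3 CPM in sIL-2, 31.8 CPM in Trikine and 62.6 CPM in sIL-2 + IL-21. The sIL-2 and Trikine libraries were close together, and sIL-2 + IL-21 was 2.07-fold above sIL-2 (log2 1.05 [0.995 to 1.10]). Idi1, the isomerase that makes dimethylallyl diphosphate, was at 39.1, 55.4 and 98.9 CPM in the same order. It was 2.53-fold higher in sIL-2 + IL-21 than in sIL-2 (log2 1.34 [1.29 to 1.39]), and here the Trikine library was also above sIL-2. Fdps, which joins the isoprene units into farnesyl diphosphate, was at 29.0, 39.0 and 75.4 CPM. Its ratio of 2.60 (log2 1.38 [1.33 to 1.43]) exceeded that of 99.8% of the 7378 genes. Pmvk, the second kinase of the mevalonate steps, was at 14.1, 16.5 and 23.1 CPM, a 1.65-fold difference between sIL-2 + IL-21 and sIL-2. The genes of low level went the same way with wider intervals. For Mvk and Mvd, the intervals of the log2 ratio of Trikine over sIL-2 spanned 0, at -0.04 to 0.28 and at -0.04 to 0.31. Mvk, the first kinase, was at 4.29, 4.66 and 7.14 CPM, Mvd, the decarboxylase, at 3.46, 3.80 and 6.68 CPM, and Acat2, which makes acetoacetyl-CoA, at 6.37, 7.82 and 8.67 CPM.

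Most genes of the steps from farnesyl diphosphate to cholesterol followed the same order, all but Tm7sf2 and Ebp. For Lss and Dhcr7, the intervals of the log2 ratio of Trikine over sIL-2 spanned 0, at -0.19 to 0.25 and at -0.01 to 0.31. Fdft1, squalene synthase, was at 18.1, 19.6 and 31.3 CPM in the order sIL-2, Trikine, sIL-2 + IL-21, and Sqle, the squalene epoxidase, at 11.6, 13.6 and 24.1 CPM. Both were close in the first 2 libraries, and sIL-2 + IL-21 stood above sIL-2 by 1.73-fold and 2.08-fold (log2 0.79 [0.72 to 0.86] and 1.05 [0.97 to 1.14]). Lss, which closes the ring to lanosterol, was at 2.40, 2.45 and 3.95 CPM. Cyp51, the lanosterol demethylase, was at 35.8, 47.0 and 72.9 CPM, and Msmo1, which oxidizes the methyl groups at carbon 4, at 20.8, 23.6 and 41.9 CPM. The ratios of sIL-2 + IL-21 over sIL-2 were 2.04 and 2.02 (log2 1.03 [0.98 to 1.08] and 1.01 [0.95 to 1.08]). Nsdhl and Hsd17b7, a dehydrogenase and a ketoreductase of the same demethylation, were at 10.1, 11.5 and 16.7 CPM and at 8.41, 9.44 and 13.98 CPM, with ratios of 1.64 and 1.66. Hsd17b7 met the level of 10 CPM only in comparisons that include sIL-2 + IL-21. Sc5d, the desaturase of a late step, was at 19.95, 23.2 and 31.4 CPM, a ratio of 1.57. Ebp, the sterol isomerase, was lowest in Trikine, at 54.7, 50.2 and 62.2 CPM with a ratio of 1.14 (log2 0.19 [0.14 to 0.23]). Of the remaining reductases, Tm7sf2 was also lowest in Trikine, at 2.13, 1.94 and 2.52 CPM, a ratio of 1.19, and Dhcr7 was at 4.29, 4.76 and 5.46 CPM. The intervals of both log2 ratios of sIL-2 + IL-21 over sIL-2 lay above 0, at 0.02 to 0.47 and at 0.20 to 0.50.

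**Figure D2:**
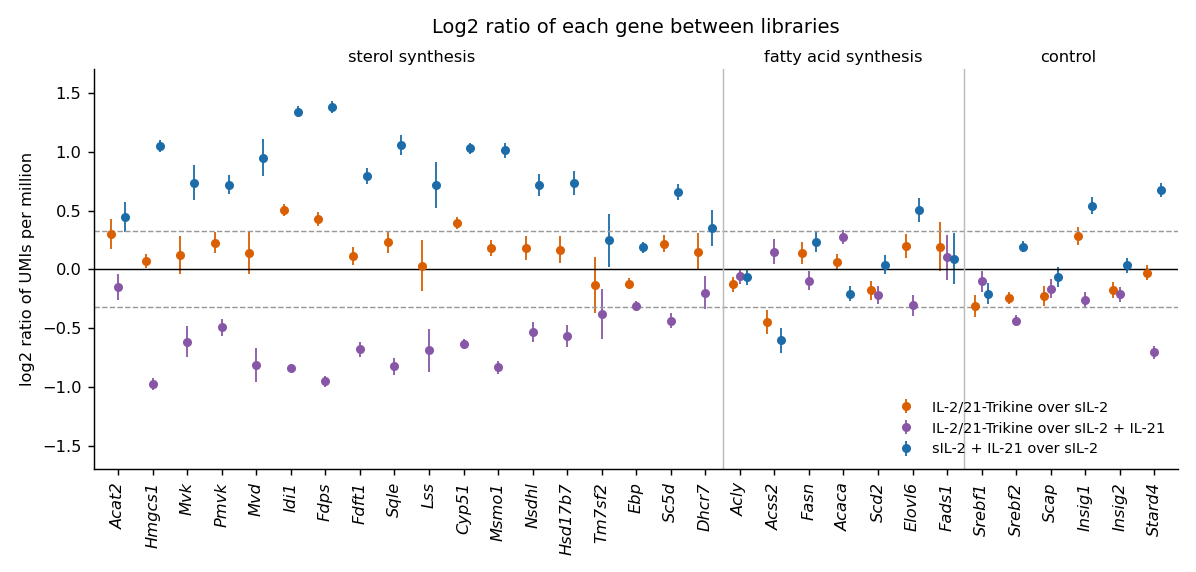
Log2 ratio of CPM for each gene with at least 1 CPM in any library, for Trikine over sIL-2 (orange), Trikine over sIL-2 + IL-21 (purple) and sIL-2 + IL-21 over sIL-2 (blue), with exact 95% counting intervals. Dashed lines mark log2 ratios of -0.32 and 0.32. Blue points lie above 0 for all 18 sterol genes, with Fdps at 1.38 and Ebp at 0.19, and scatter around 0 in the fatty acid arm, with Acss2 at -0.60 and Elovl6 at 0.50. Fads2, under 1 CPM in every library, is not drawn.

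In the fatty acid arm, the genes did not share a direction. Acss2, which makes cytosolic acetyl-CoA from acetate, was at 12.3 CPM in sIL-2, 9.03 CPM in Trikine and 8.13 CPM in sIL-2 + IL-21. It was highest in sIL-2 and lower in sIL-2 + IL-21 by a log2 ratio of -0.60 [-0.71 to -0.50]. Elovl6, which lengthens saturated fatty acids, went the other way, at 9.85, 11.3 and 14.0 CPM, a log2 ratio of 0.50 [0.41 to 0.60] between the same libraries, though with each cell weighted equally the ratio was 0.319, just under the limit for a count. The core enzymes were near level. Acly, which makes acetyl-CoA from citrate, was at 26.0, 23.8 and 24.7 CPM, and Acaca, the carboxylase that commits acetyl-CoA to synthesis, at 28.4, 29.8 and 24.6 CPM. Fasn, fatty acid synthase, was at 12.9, 14.3 and 15.2 CPM, and Scd2, a desaturase, at 17.1, 15.1 and 17.6 CPM. None of these 4 was counted in any of the 3 comparisons. Fads1, a desaturase of polyunsaturated fatty acids, was at 2.42, 2.76 and 2.58 CPM. Fads2, its partner enzyme, was below 1 CPM in every library, with 21, 29 and 126 UMIs. At this low level its log2 ratio for sIL-2 + IL-21 over sIL-2 was 2.22 [1.54 to 2.96], and it entered no count.

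The control genes included some that moved with the sterol arm and some that did not. Stard4, a sterol transport protein that is itself a SREBP2 target, was at 25.7, 25.2 and 41.1 CPM in sIL-2, Trikine and sIL-2 + IL-21. Only sIL-2 + IL-21 stood apart, 1.60-fold above sIL-2 (log2 0.68 [0.62 to 0.74]). Insig1, which retains SREBP and is induced by it, was at 17.8, 21.6 and 25.9 CPM, a 1.45-fold difference (log2 0.54 [0.47 to 0.61]). Insig2, the other retention protein, was at 26.1, 23.1 and 26.8 CPM, with a log2 ratio of 0.04 [-0.03 to 0.10]. Srebf2 was at 48.1, 40.6 and 54.9 CPM, Srebf1 at 14.3, 11.6 and 12.4 CPM and Scap at 16.5, 14.1 and 15.8 CPM. Between sIL-2 + IL-21 and sIL-2, the log2 ratios of these 3 were 0.19, -0.21 and -0.06, all within the limit of 0.32.

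Between Trikine and sIL-2, 3 of the 11 sterol genes that met the level were higher, Idi1, Fdps and Cyp51, with ratios of 1.42, 1.35 and 1.31 (log2 0.50 [0.45 to 0.55], 0.43 [0.37 to 0.49] and 0.39 [0.34 to 0.45]). Of all 23 genes of the set that met the level, these 3 were higher and Acss2 was lower (log2 ratio -0.45 [-0.55 to -0.35]), where 7.14% of 7365 genes were higher and 15.1% lower. The other 8 sterol genes lay within the limit, 7 of them above 0, and the median of the 11 was 0.22 against -0.08 over all genes. The count of higher genes was 10 when cells with a UMI of any melanoma or myeloid marker, mostly Fcer1g, were left out. It was 3 when Fcer1g and Cd68 were not used as markers. The share over all genes under these filters is not given. In non-cycling cells, Fdps was at a log2 ratio of 0.31, under the limit.

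Between Trikine and sIL-2 + IL-21, the 12 sterol genes that met the level all had log2 ratios below 0, and 11 were counted as lower, again all but Ebp (-0.31 [-0.35 to -0.27]). Hmgcs1 and Fdps were the lowest, at -0.97 [-1.02 to -0.93] and -0.95 [-0.996 to -0.91]. Stard4, at -0.70, and Srebf2, at -0.43, were also lower. That made 13 lower and 0 higher of 23 genes, where 6.80% of 7306 genes were lower and 7.65% higher. None of the 5 fatty acid genes that met the level was counted. Their log2 ratios ran from -0.31 for Elovl6 to 0.27 for Acaca.

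Cycling cells, taken as cells with at least 1 UMI of the proliferation gene Mki67, had a higher density of sterol UMIs in every library. They made up 24.3% of cells in sIL-2 (1882 cells), 29.7% in Trikine (3952 cells) and 44.3% in sIL-2 + IL-21 (4340 cells), or 9.22%, 14.7% and 19.5% after each cell was thinned to 2000 UMIs. In sIL-2, the sterol sum was 406 CPM in cycling and 255 CPM in the other cells. The cycling over non-cycling log2 ratios were 0.67 [0.64 to 0.70] in sIL-2, 0.76 in Trikine and 0.61 in sIL-2 + IL-21, against 0.12, 0.15 and 0.22 for the fatty acid sum. Of the 11 sterol genes at 10 CPM or more in each library, 9 were higher by that limit in cycling cells of all 3 libraries, all but Nsdhl and Ebp. Scd2 and Stard4 were also higher in all 3, which made 11 of the 21 genes of the set that met the level, and 0 were lower. Over 7011 genes, 11.7% were higher and 6.18% lower in all 3. Fdps and Idi1 again had the largest ratios among these 11 genes in each library. The log2 ratios of Fdps were 1.08, 1.12 and 0.81, and those of Idi1 were 1.06, 1.11 and 0.91. Acss2 had a higher level in non-cycling cells, with cycling over non-cycling log2 ratios of -0.38, -0.35 and -0.54. Fads1 was higher in cycling cells by log2 ratios of 0.82, 1.61 and 1.53, from 1.18 to 4.26 CPM in either class.

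**Figure D3:**
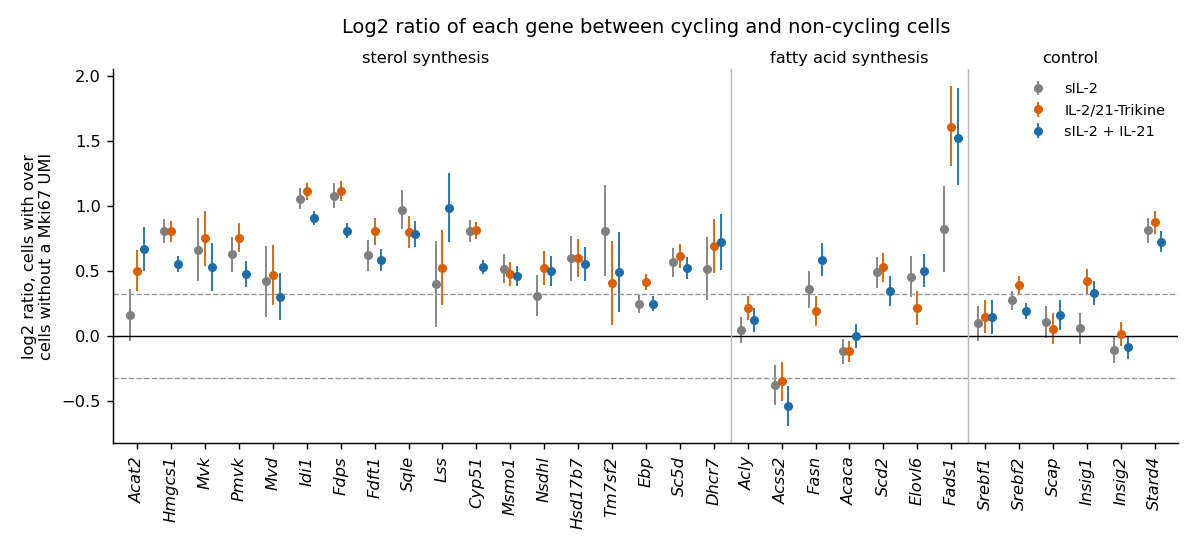
Log2 ratio of CPM in cells with over cells without a Mki67 UMI, for each gene with at least 1 CPM in any library, in sIL-2 (gray), Trikine (orange) and sIL-2 + IL-21 (blue), with exact 95% counting intervals and dashed lines at -0.32 and 0.32. All sterol genes lie above 0, Idi1 and Fdps near 1, and Acss2 lies below 0 in all 3 libraries.

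The share of cycling cells was highest in the library with the highest sterol sum, so the libraries were also compared within each class. Among cycling cells alone, the log2 ratio of the sterol sum for sIL-2 + IL-21 over sIL-2 was 0.73 [0.71 to 0.76], and among non-cycling cells it was 0.80 [0.77 to 0.83]. The corresponding values for Trikine over sIL-2 + IL-21 were -0.54 and -0.69. For Trikine over sIL-2 they were 0.20 and 0.11. The difference between sIL-2 + IL-21 and sIL-2 was thus present on either side of the Mki67 split, at a lower value than in all cells. Cycling cells in which no Mki67 UMI was caught are among the non-cycling cells, so this class is mixed. The part of cycling in the difference was not tested.

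Cycling cells held more UMIs, with medians of 24082, 18604 and 21880 against 11318, 8506 and 10068 in non-cycling cells. The density of sterol UMIs was higher in cells with more UMIs from 5000 UMIs upward, in non-cycling cells of sIL-2 from 188 CPM at 5000 to 9999 UMIs to 329 CPM at 20000 or more. The fatty acid sum in the same cells was 105 and 109 CPM. Within each of 4 ranges of UMIs per cell, cycling cells were above non-cycling cells in the sterol sum in all 3 libraries, by log2 ratios of 0.18 to 1.29. Over the 8 combinations of range and class, sIL-2 + IL-21 was above sIL-2 in 8 of 8, by log2 ratios of 0.29 to 0.95 with a mean of 0.78. Trikine was above sIL-2 in 8 of 8 as well, by 0.03 to 0.63, with 2 intervals that span 0, both in non-cycling cells under 10000 UMIs, and below sIL-2 + IL-21 in all 8. The fatty acid sum differed more within some of these combinations than in all cells, most in the range of 2000 to 4999 UMIs. For Trikine over sIL-2 it ran from -0.93 [-1.25 to -0.61] in non-cycling cells of 2000 to 4999 UMIs to 0.07, with a mean of -0.23, and for sIL-2 + IL-21 over sIL-2 from -0.59 to 0.13, with a mean of -0.16. The range of 2000 to 4999 UMIs held as few as 33 cycling cells, and the means give each combination the same weight. From 5000 UMIs upward, the fatty acid values ran from -0.14 to 0.07 for Trikine over sIL-2. For sIL-2 + IL-21 over sIL-2 they ran from -0.22 to 0.13 there.

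**Figure D4:**
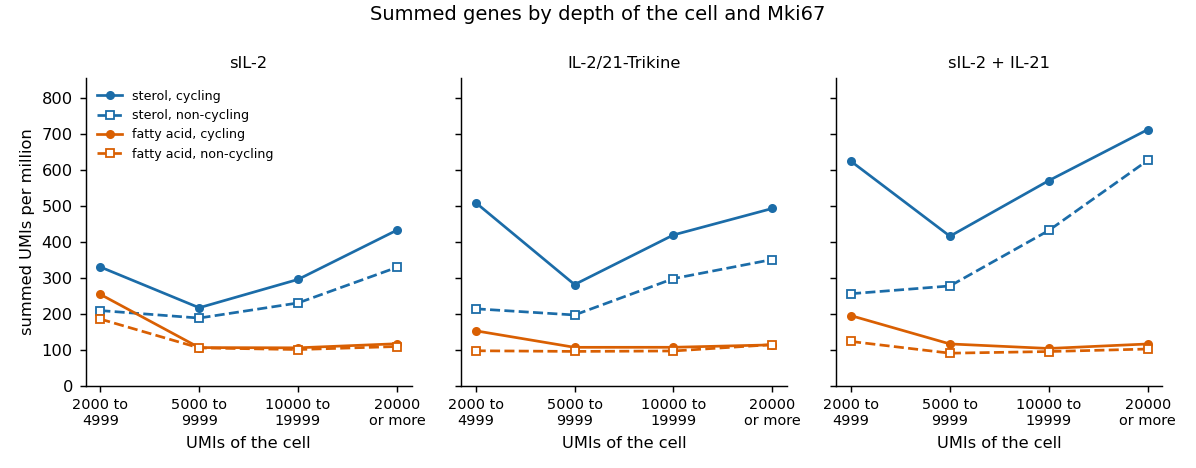
Summed level in CPM of the sterol (blue) and fatty acid (orange) arms in cells with (filled, solid) and without (open, dashed) a Mki67 UMI, by the UMIs of the cell, in each library. The sterol lines rise from 5000 UMIs upward, to 713 CPM in cycling cells of sIL-2 + IL-21, while the fatty acid lines lie between 90.3 and 117 CPM from 5000 UMIs upward.

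A score per cell was taken as the number of sterol UMIs after each cell was thinned to 2000 UMIs, with 266, 1775 and 364 shallower cells left out and Mki67 read after thinning. The mean score in cycling and non-cycling cells was 0.768 and 0.502 in sIL-2, 0.913 and 0.577 in Trikine and 1.31 and 0.918 in sIL-2 + IL-21. Non-cycling cells of sIL-2 + IL-21 thus had a higher mean than cycling cells of sIL-2. Cells whose Mki67 UMIs were lost in thinning are among the non-cycling cells here, so this class is mixed. The standard deviations over cells, 0.814 to 1.39, were larger than these differences, and 33.0 to 63.4% of the cells in a class held 0 sterol UMIs. Unthinned, the means were 3.64 and 2.26 UMIs per 10000 in sIL-2, 4.49 and 2.70 in Trikine and 6.38 and 3.82 in sIL-2 + IL-21. The fatty acid score was 0.185 and 0.210, 0.225 and 0.194, and 0.240 and 0.196 in the same order, and so was not higher in cycling cells of sIL-2.

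Sterol genes were found together in the same cells. Cells of at least 5000 UMIs were thinned to 5000 and split by whether they held a UMI of 1 member. In cells with a Hmgcs1 UMI, the other sterol genes had a median log2 ratio of 0.78 in sIL-2 (764 of 7279 cells), 0.96 in Trikine and 0.74 in sIL-2 + IL-21, against 0.01, 0.04 and 0.04 over all genes. With Idi1 as the splitting gene the medians were 1.07, 1.01 and 0.95, and with Sqle they were 1.002, 0.97 and 0.77. Splitting by Insig1 gave 0.29, 0.43 and 0.64. Splitting by Fasn gave 0.19, 0.22 and 0.33 for the sterol genes and -0.17, 0.22 and 0.44 for the other fatty acid genes. Splitting by Scd2 gave 0.41, 0.28 and 0.46 for the sterol genes and 0.13, 0.17 and 0.22 for the other fatty acid genes. Splitting by Hmgcs1 gave 0.00, 0.17 and 0.45 for the fatty acid genes, so that in sIL-2 + IL-21 these had more UMIs in cells with Hmgcs1 as well. These values describe sparse counts in cells of 1 library each and carry no test. The splits pooled cycling and non-cycling cells and cells of different depth before thinning. The part of either in these medians was not tested.

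**Figure D5:**
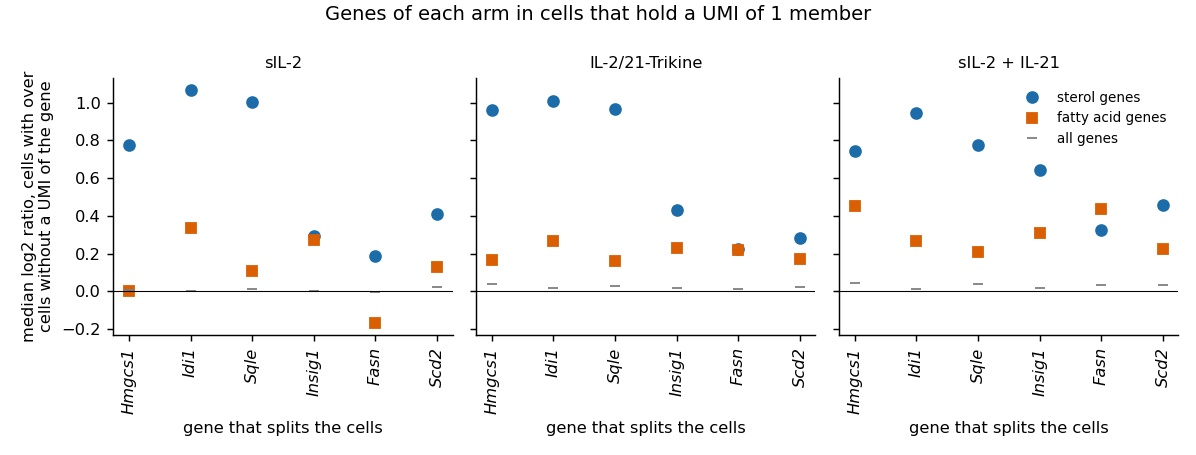
Median log2 ratio of density in cells with over cells without a UMI of the gene on the horizontal axis, over the other sterol genes (blue circles), the other fatty acid genes (orange squares) and all genes (gray dashes), in each library. Splits by Hmgcs1, Idi1 and Sqle give sterol medians of 0.74 to 1.07, splits by Fasn 0.19 to 0.33, and all genes stay near 0.

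The sterol sum also differed along marks of T cell state, in the same thinned cells. In cells with a UMI of Tcf7, a factor of stem-like T cells, it was lower than in other cells by log2 ratios of -0.38, -0.32 and -0.73 in sIL-2, Trikine and sIL-2 + IL-21. It was lower with Ifit3, an interferon response gene, by -0.65, -0.53 and -0.84, and with Nr4a1, an early gene of TCR signaling, by -0.38, -0.36 and -0.44. It was higher with Havcr2, which encodes the inhibitory receptor TIM-3, by 0.20, 0.18 and 0.21. Splits by Il2ra and by Myc gave values of -0.22 to -0.08. The level of these marks differed between libraries as well. Tcf7 was at 60.3, 59.9 and 21.7 CPM, Ifit3 at 40.4, 25.6 and 6.53 CPM and Nr4a1 at 346, 177 and 155 CPM, each lowest in sIL-2 + IL-21. Tcf7 was level between sIL-2 and Trikine, with a log2 ratio of -0.01 [-0.05 to 0.03], where the sterol sum differed. Havcr2 was at 148, 58.9 and 146 CPM, lowest in Trikine and near equal in the other 2 libraries, so it did not have the sterol order. The part of these marks in the sterol difference between libraries was not tested. These splits also pooled cycling and non-cycling cells and cells of different depth before thinning. A split of the same cells by Mki67 gave 0.63, 0.73 and 0.56 for the sterol sum. The part of cycling or depth in the other splits was not tested. For the fatty acid sum, the values over the splits by Tcf7, Ifit3, Nr4a1 and Havcr2 ran from -0.12 to 0.12. With Myc the fatty acid sum was higher, by 0.18, 0.11 and 0.26, opposite in sign to the sterol sum, and with Il2ra it differed by -0.02, 0.09 and 0.15.

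Beside the set, related genes were read from lists of other pathway members. Of 13 other sterol genes, 8 met the level between sIL-2 + IL-21 and sIL-2, with 2 higher, 1 lower and a median log2 ratio of -0.09. Tmem97, a SREBP target also known as the sigma-2 receptor, was at 20.02 CPM in sIL-2, 29.9 CPM in Trikine and 42.9 CPM in sIL-2 + IL-21, so it had the order of the sterol arm. Npc2, which takes cholesterol out of lysosomes, had the reverse order at 374, 291 and 259 CPM. Npc1, its partner in the lysosomal membrane, was at 26.3, 20.1 and 25.6 CPM. The shares over all genes in that comparison were 11.5% higher and 21.5% lower. Over Trikine against sIL-2, 1 of 8 was higher and 2 lower, beside 7.14% and 15.1% of all genes, and against sIL-2 + IL-21, 4 of 9 were lower, beside 6.80%.

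Of the genes of the LXR pathway and of sterol export, Abcg1, Mylip and Nr1h2 had the reverse order of the sterol arm, as did Abca1, which was under 1 CPM in each library. Abcg1, a sterol exporter induced by LXR, was at 14.0 CPM in sIL-2, 10.4 CPM in Trikine and 4.67 CPM in sIL-2 + IL-21. Mylip, an LXR target that marks lipoprotein receptors for degradation, was at 17.8, 13.0 and 6.77 CPM, with a log2 ratio of -1.39 [-1.50 to -1.29] for sIL-2 + IL-21 over sIL-2. Nr1h2, which encodes LXR beta, was at 35.4, 27.7 and 26.4 CPM, and Lpcat3, a phospholipid enzyme and LXR target, at 21.0, 16.4 and 18.4 CPM. Of the 7 genes in this list, 4 met the level for Trikine over sIL-2 and 4 were lower, where 15.1% of all genes were lower. For sIL-2 + IL-21 over sIL-2, 2 of 3 were lower, where 21.5% of all genes were. Abcg1 then had a mean under 10 CPM and entered no count. For Trikine over sIL-2 + IL-21, 0 of 2 were counted, with Nr1h2 at a log2 ratio of 0.07 and Lpcat3 at -0.17. Abcg1 and Mylip both had means under 10 CPM there and entered no count. Their log2 ratios were 1.16 [1.03 to 1.28] and 0.94 [0.84 to 1.04].

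Genes of the branches that leave the pathway at farnesyl diphosphate had medians near those over all genes, and few were counted. Of 8 genes of ubiquinone, dolichol and protein prenylation, 7 met the level between sIL-2 + IL-21 and sIL-2 and 1 was higher, Pdss1, which makes the ubiquinone side chain, at 18.6, 25.1 and 25.4 CPM in the same order of libraries. The median was -0.07, as over all genes, of which 11.5% were higher and 21.5% lower. Pdss1 was also the 1 gene of 8 higher between Trikine and sIL-2, beside 7.14% of all genes. Between Trikine and sIL-2 + IL-21, 0 of 7 were counted, where 7.65% of all genes were higher and 6.80% lower. Of 13 other genes of fatty acid synthesis, 7 met the level in each comparison. Tecr, a reductase of fatty acid elongation, was at 73.2, 74.4 and 93.5 CPM and was the 1 gene higher in sIL-2 + IL-21 than in sIL-2 and lower in Trikine than in sIL-2 + IL-21. Hacd3, a dehydratase of elongation, was at 55.1, 43.6 and 45.0 CPM and was the 1 gene lower in Trikine than in sIL-2. Shares over all genes for these 3 counts were 11.5%, 6.80% and 15.1%, and 1 of 7 lies near them.

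Of 14 genes of fatty acid oxidation, 13 met the level. Cpt1a, which brings long-chain fatty acids into mitochondria, was at 30.3, 19.9 and 24.2 CPM, and Slc25a20, the carnitine carrier, at 33.9, 23.0 and 24.7 CPM. Both were highest in sIL-2 and were counted as lower in both other libraries. In sIL-2 + IL-21 over sIL-2, Cpt1a lay at the limit itself, with a log2 ratio of -0.32 [-0.39 to -0.26]. Etfb, an electron carrier subunit, was at 108, 113 and 167 CPM, and Acadvl, the dehydrogenase of very long chains, at 25.9, 20.4 and 21.8 CPM. Between sIL-2 + IL-21 and sIL-2, 2 of 13 genes were higher and 2 lower, with a median log2 ratio of 0.07, where 11.5% of all genes were higher and 21.5% lower. Between Trikine and sIL-2, 0 were higher and 3 lower, where 7.14% of all genes were higher and 15.1% lower. These counts were near the shares over all genes. Between Trikine and sIL-2 + IL-21, 0 of 13 were higher and 1 was lower, where 7.65% of all genes were higher and 6.80% lower.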

How the data were processed

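Sorted Thy1.1+CD8+ TILs were profiled with 10x 3' Gene Expression v3.1 in 3 libraries. The deposited matrices hold UMI counts without normalization, which the authors obtained with Cell Ranger 9.0.0 and limited to called cells. The methods name GRCm39 and the submitters' processing notes name mm10, so no position of a measured gene is given. Promoter coordinates are those of RefSeq GRCm38.p6. Cells with 500 to 120000 UMIs and at most 20% mitochondrial UMIs were kept, no doublet caller was run, and UMIs were summed per library and scaled to CPM (Python 3.11.15, numpy 2.4.6, scipy 1.17.1, pandas 2.3.3). Intervals were exact Poisson for levels and Clopper-Pearson on the conditional binomial for ratios, at 95%. They cover counting error only, as RNA from lysed cells and variation between cells or mice are not in them. A gene was counted past a log2 ratio of 0.32 either way if its mean was at least 10 CPM. Ratios and thinning were tested on simulated data. Members and lists were chosen with earlier results of these data known. All members at 1 CPM or more were named. From other lists (other sterol genes, LXR and sterol export, isoprenoid branches, other fatty acid synthesis, fatty acid oxidation), up to 4 counted genes were named. Some genes of these lists are not reported here. The alternatives changed the scaling, limits on cells, marker-positive cells, depth, the Mki67 rule and the fold.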

Additional observations from a re-analysis of the deposited data

How the results depend on the processing

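No paired analysis was possible because each group had 1 library, and leaving out a library leaves no group to compare. Of 630 values of single genes under alternatives, 465 moved by less than their counting interval, 165 moved by more, and 0 of those counted in the report turned direction. Alternatives with strata, with Fcer1g and Cd68 not used as markers and with at least 2000 UMIs unthinned were chosen after seeing the data. The summed values below are log2 ratios. Those within strata or ranges are means that give each stratum the same weight, also strata of few cells. Counts under alternatives are given without the share over all genes.

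For IL-2/21-Trikine over sIL-2, the sterol sum (0.22) was 0.30 with median of ratios scaling, 0.32 with each cell weighted equally, 0.25 with cells thinned to 2000 UMIs, 0.42 without cells with a melanoma or myeloid marker UMI, 0.24 with Fcer1g and Cd68 not used as markers, 0.11 in non-cycling cells, 0.28 within 8 strata of depth and Mki67, and 0.17 without its highest gene. The fatty acid sum (-0.04) was 0.0390 with median of ratios scaling, 0.0258 with cells weighted equally, -0.23 within strata and -0.0799 without its highest gene. The count of higher genes (3) was 10 without marker cells and 0 at 1.5-fold. The count of lower genes (1) was 2 with stricter cell limits of 1000 UMIs and 10% mitochondrial, with thinning, with Fcer1g and Cd68 not used and with at least 2000 UMIs, 3 in non-cycling cells and 0 at 1.5-fold.

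For IL-2/21-Trikine over sIL-2 + IL-21, the sterol sum (-0.69) was -0.62 with cells weighted equally, -0.67 with thinning, -0.67 without marker cells, -0.50 within strata and -0.66 without its highest gene. The fatty acid sum (-0.02) was 0.0602 with cells weighted equally, -0.0515 without marker cells, 0.0503 in non-cycling cells, -0.0672 within strata and -0.12 without its highest gene. The count of higher genes (0) was 1 in non-cycling cells, and that of lower genes (13) was 8 at 1.5-fold.

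For sIL-2 + IL-21 over sIL-2, the sterol sum (0.90) was 0.99 with median of ratios scaling, 0.93 with cells weighted equally, 1.09 without marker cells, 0.80 in non-cycling cells, 0.93 with Fcer1g and Cd68 not used, 0.78 within strata and 0.83 without its highest gene. The fatty acid sum (-0.02) was 0.0617 with median of ratios scaling, 0.0108 without marker cells, -0.12 in non-cycling cells, -0.16 within strata and 0.0392 without its highest gene.

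For cycling over non-cycling cells, the sterol sum was 0.62 with thinning before Mki67 was read, 0.73 at 2 Mki67 UMIs, 0.41 within ranges of depth and 0.72 without marker cells in sIL-2 (0.67). In IL-2/21-Trikine (0.76) it was 0.74 with cells weighted equally, 0.66 with thinning, 0.73 at 2 UMIs, 0.69 within ranges and 0.83 without marker cells. In sIL-2 + IL-21 (0.61) it was 0.74, 0.52 and 0.58 for the first 3 of these and 0.81 without marker cells. The fatty acid sum was 0.0272 with cells weighted equally and -0.18 with thinning in sIL-2 (0.12), and 0.06, 0.22 and, within ranges, 0.24 in IL-2/21-Trikine (0.15). In sIL-2 + IL-21 (0.22) it was 0.11, 0.29 and 0.33, and 0.29 without marker cells. Between cycling and non-cycling cells, the fatty acid sum changed sign in sIL-2 with thinning and in neither other library. In the comparisons of libraries it changed sign in all 3, and the sterol sum kept its sign in all settings run. The cause was not tested. Single genes over 10 CPM moved with thinning too, which leaves fewer UMIs and gives each cell the same weight. For Trikine over sIL-2, thinning moved Pmvk from 0.23 to 0.0497, Fasn from 0.14 to -0.0498 and Sqle from 0.23 to 0.62. With at least 2000 UMIs and no thinning, these genes were at 0.2309, 0.1321 and 0.2100. The counts of Fdps in that comparison (0.3135 in non-cycling cells) and of Elovl6 in sIL-2 + IL-21 over sIL-2 (0.319 with cells weighted equally) were lost. The spread between mice is unknown.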
